A study of Homo sapiens with 36 samples.

Results

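The genes described here encode the collagens, the laminins, the nidogens and perlecan. They are the protein-coding genes of the count table whose symbols are COL, a number and A, or LAMA, LAMB or LAMC and a number, together with NID1, NID2 and HSPG2, and they number 59 of the 45478 gene identifiers in the table. Of these, 21 form the basement membrane set (6 chains of collagen IV, 5 laminin α, 4 laminin β and 3 laminin γ chains, and the 3 genes of nidogens and perlecan), and 11 encode fibrillar collagens. The rest are 10 fibril-associated collagens, 5 chains of collagen VI, 3 of collagens VIII and X, 2 multiplexins, 4 transmembrane collagens and 3 others. Established lines derived from human clear cell kidney carcinoma were used, A498 and 786-O, both as parental cultures and after selection with sunitinib, a kinase inhibitor (2 µM for A498 and 4 µM for 786-O, per the labels). All cells, parental ones included, had received atezolizumab, avelumab or durvalumab, antibodies against the checkpoint ligand PD-L1, for 24 h at a dose that the labels write as 10 mg/mL. That gives 12 groups of 3 libraries in 4 cell states of 9, and no untreated library was analysed here.

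Basement membranes are thin sheets of matrix under epithelia and around vessels. A laminin network, in which each molecule holds an α, a β and a γ chain, and a collagen IV network are joined in them by nidogens and by perlecan, a large proteoglycan encoded by HSPG2. In kidney the chains made from COL4A1 and COL4A2 are found in most basement membranes, whereas those of COL4A3, COL4A4 and COL4A5 form the network of the mature glomerular filter. Fibrillar collagens, such as types I, III and V, instead build the fibres of connective tissue, and fibril-associated collagens bind to the surface of such fibres.

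Each cell state carried a batch label of its own, so that resistance, or the line, and batch cannot be told apart in any comparison of states, while antibodies were compared within a batch. The labels describe selection in rising sunitinib doses and name no clones, and whether libraries of 1 group are separate cultures is not said, so the spread behind each p-value may be technical. Total counts ranged from 19994882 to 58122896 per library. Of 10 renal and carcinoma markers, 9 or 10 were at or above 1 CPM (the count of a gene scaled to a fixed library total) in every state, while summed endothelial markers stayed at or below 3.08 CPM and leukocyte markers at or below 4.64 CPM in each library. Fibroblast and mural markers summed to 12 to 14.5 CPM in 786-O parental, 22.5 to 26.4 in 786-O resistant, 12.9 to 17.3 in A498 parental and 32.0 to 37.0 in the libraries labelled A498 resistant, led by ACTA2 in the first 3 and by LUM (16.2 CPM) in the last, and their part in the results was not tested. HIF1A was at 294 ± 7.37 CPM (SD, n = 9) in A498 parental but at 8.99 ± 0.493 in those labelled A498 resistant, against 8.71 ± 0.424 and 9.36 ± 0.571 for resistant and parental 786-O. Which line the set labelled A498 resistant came from is thus uncertain, and every comparison with them is a difference between libraries as labelled. The comparison within 786-O and that between the parental lines do not use them.

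The collagen IV genes lie in head-to-head pairs that share the stretch between their start sites, and 3 such stretches hold all 6 genes. RefSeq (GRCh38.p14) places 126 bases between the start sites of COL4A1 and COL4A2 on chromosome 13, 418 between those of COL4A3 and COL4A4 on chromosome 2 and 379 between those of COL4A5 and COL4A6 on the X chromosome. The whole COL4A1 to COL4A2 stretch is shown first, because these genes held the highest CPM of collagen IV. The 250 bases before the RefSeq starts of COL4A3 and COL4A4 follow. They were chosen because, among genes with counts in both states, COL4A4 had the largest fitted rise in 786-O resistant cells. NID1 and COL5A1 are shown as the members with the widest falls in the libraries labelled A498 resistant. Gene coordinates given further below are from GENCODE, which disagrees with these start sites. It gives gaps of -1422 (an overlap), 111 and 346 bases for the collagen IV pairs in the order above. By GENCODE each printed stretch runs partly or wholly into a gene. Nearly all of the COL4A4 window lies within COL4A4, which ends at 227164453. The stretches thus lie before gene starts by RefSeq only. Capitals mark GGGCGG and CCAAT on either strand (CCGCCC and ATTGG when read on the other).
COL4A1 to COL4A2, chr13:110307158-110307283, plus strand: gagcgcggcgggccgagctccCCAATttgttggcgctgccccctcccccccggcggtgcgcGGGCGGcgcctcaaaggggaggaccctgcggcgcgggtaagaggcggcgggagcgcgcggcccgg
COL4A3, chr2:227164374-227164623, plus strand: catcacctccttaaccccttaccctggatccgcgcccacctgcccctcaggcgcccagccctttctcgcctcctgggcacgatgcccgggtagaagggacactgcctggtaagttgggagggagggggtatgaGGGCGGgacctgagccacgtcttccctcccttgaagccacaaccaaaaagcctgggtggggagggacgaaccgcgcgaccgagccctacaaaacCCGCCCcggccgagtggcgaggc
COL4A4, chr2:227164206-227164455, minus strand: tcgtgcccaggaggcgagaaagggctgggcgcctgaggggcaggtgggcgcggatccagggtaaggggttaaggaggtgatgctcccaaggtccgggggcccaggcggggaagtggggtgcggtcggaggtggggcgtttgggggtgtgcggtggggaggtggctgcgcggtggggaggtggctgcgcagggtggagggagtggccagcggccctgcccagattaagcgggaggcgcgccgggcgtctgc
NID1, chr1:236065091-236065340, minus strand: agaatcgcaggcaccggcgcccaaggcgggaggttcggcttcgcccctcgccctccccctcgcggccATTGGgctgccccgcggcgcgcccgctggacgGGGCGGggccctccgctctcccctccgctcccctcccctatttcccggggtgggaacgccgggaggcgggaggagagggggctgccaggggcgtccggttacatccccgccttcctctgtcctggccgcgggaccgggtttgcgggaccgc
COL5A1, chr9:134641553-134641802, plus strand: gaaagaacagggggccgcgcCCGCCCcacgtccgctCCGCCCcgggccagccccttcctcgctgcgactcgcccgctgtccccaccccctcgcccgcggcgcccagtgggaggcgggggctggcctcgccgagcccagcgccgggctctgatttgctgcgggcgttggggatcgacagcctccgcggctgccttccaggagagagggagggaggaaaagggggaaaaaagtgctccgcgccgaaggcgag
All 5 stretches were rich in G and C, from 66.4% in the COL4A3 window to 80.2% between COL4A1 and COL4A2. GGGCGG occurred once between COL4A1 and COL4A2, as did CCAAT, while the COL4A3 window held GGGCGG in 2 places and the COL4A4 window held neither motif. The windows of COL4A3 and COL4A4 overlap by 82 bases. Among 35116 RefSeq windows of 250 bases, GGGCGG was present in 42.6% and CCAAT in 32.0%, against 60.3% and 27.6% of the 58 windows of 44 matched members. TATAAA was present in 10.7% of all windows and 13.8% of the members' windows, and TGANTCA in 6.57% and 5.17%, each searched on both strands.

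Of the 59 genes, 41 reached a mean of 1 CPM in at least 1 state and 18 did in none. The number at or above 1 CPM was 28 in 786-O parental, 30 in 786-O resistant, 38 in A498 parental and 32 in the libraries labelled A498 resistant. Together the genes took 0.461%, 0.758%, 0.640% and 0.596% of all counts in these states. The genes below 1 CPM in every state included COL1A2 and COL3A1, which encode chains of the main collagens of connective tissue: COL1A2 had 1, 1, 1 and 5 counts over the 9 libraries of the states in the same order, and COL3A1 had 1, 16, 0 and 1. The others were COL2A1, COL11A1 and COL24A1 (fibrillar), COL9A1, COL9A3, COL19A1 and COL21A1 (fibril-associated), COL6A5 and COL6A6, COL8A2 and COL10A1, COL15A1, COL23A1, COL25A1, COL26A1 and LAMB4.

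**Figure D1:**
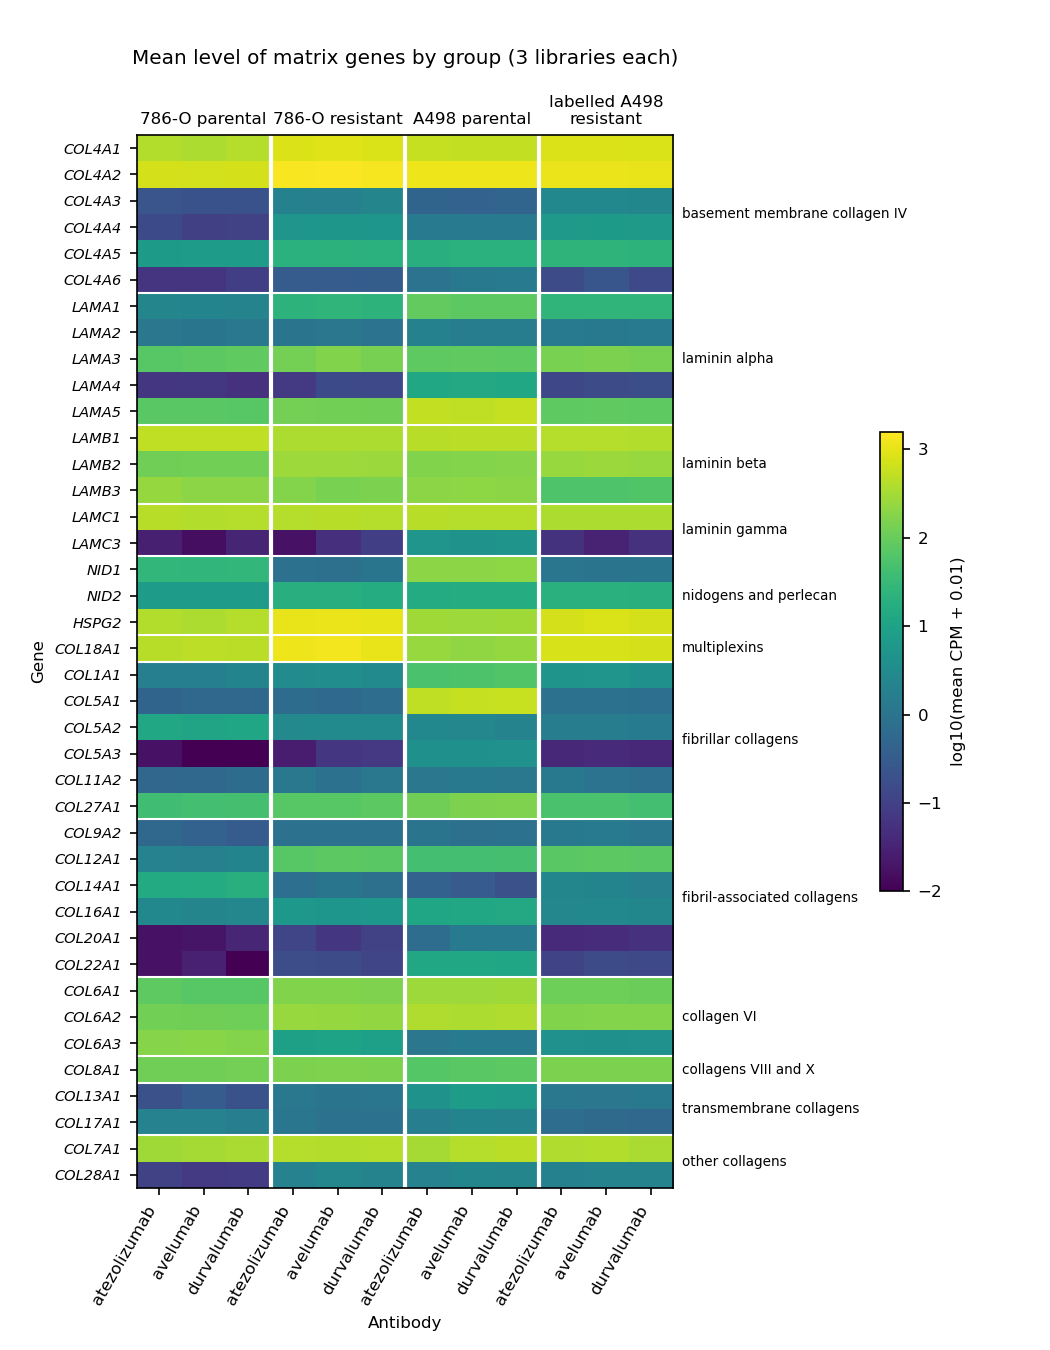
Mean level (log10 of CPM + 0.01) of collagen, laminin, nidogen and perlecan genes that reached 1 CPM in a state, for each of the 12 groups of 3 libraries, with genes in rows by class and antibodies in columns by state. COL5A1 is high in A498 parental alone (545 CPM over its 9 libraries), and NID1 is at about 1 CPM in both sets of resistant libraries.

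Levels of different genes were compared per kilobase of exonic length. In 786-O parental the highest 4 were LAMB1 (61.3 CPM per kb), COL18A1 (54.3), LAMC1 (50.1) and LAMB3 (45.0), that is, 3 laminin chains and the multiplexin whose end fragment is endostatin. In 786-O resistant COL18A1 (138 CPM per kb), COL4A2 (73.5), HSPG2 (58.8) and COL4A1 (57.4) led. A498 parental differed in its leading genes, which were COL6A2 (69.0 CPM per kb), COL4A2 (61.2), LAMB1 (55.6), COL6A1 (51.8) and LAMC1 (51.1), with the fibrillar COL5A1 next at 48.8. The libraries labelled A498 resistant had COL18A1 (87.6), COL4A2 (56.8) and COL4A1 (56.7) at the top, the multiplexin and the main collagen IV pair.

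Basement membrane genes outweighed fibrillar collagens in every library, and least so in A498 parental. The summed level of the 21 basement membrane genes was 3246 ± 111 CPM (SD, n = 9) in 786-O parental, 5247 ± 339 in 786-O resistant, 4213 ± 197 in A498 parental and 4253 ± 136 in the libraries labelled A498 resistant. The 11 fibrillar genes summed to 58.5 ± 3.62, 82.7 ± 6.14, 754 ± 62.8 and 57.3 ± 7.57 CPM in the same order. No 786-O parental library reached the lowest 786-O resistant one in the basement membrane sum (3455 against 4493 CPM), and all A498 parental libraries lay above the other states in the fibrillar sum (667 CPM or more against 94.1 or less). Per kilobase the ratio of the sums was 63.8 ± 3.19 in 786-O parental, 69.0 ± 5.80 in 786-O resistant, 5.74 ± 0.415 in A498 parental and 78.9 ± 8.67 in the libraries labelled A498 resistant. COL5A1, a chain that controls the width of collagen fibrils, made up 72.4% of the fibrillar sum in A498 parental, while COL27A1, a collagen of cartilage, made up 74.4%, 88.9% and 84.5% of it in 786-O parental, 786-O resistant and the libraries labelled A498 resistant. Without COL27A1 the fibrillar sum was 15 ± 0.881, 9.22 ± 0.394, 610 ± 43.2 and 8.85 ± 1.07 CPM, in the order given above. These sums carry no test.

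**Figure D2:**
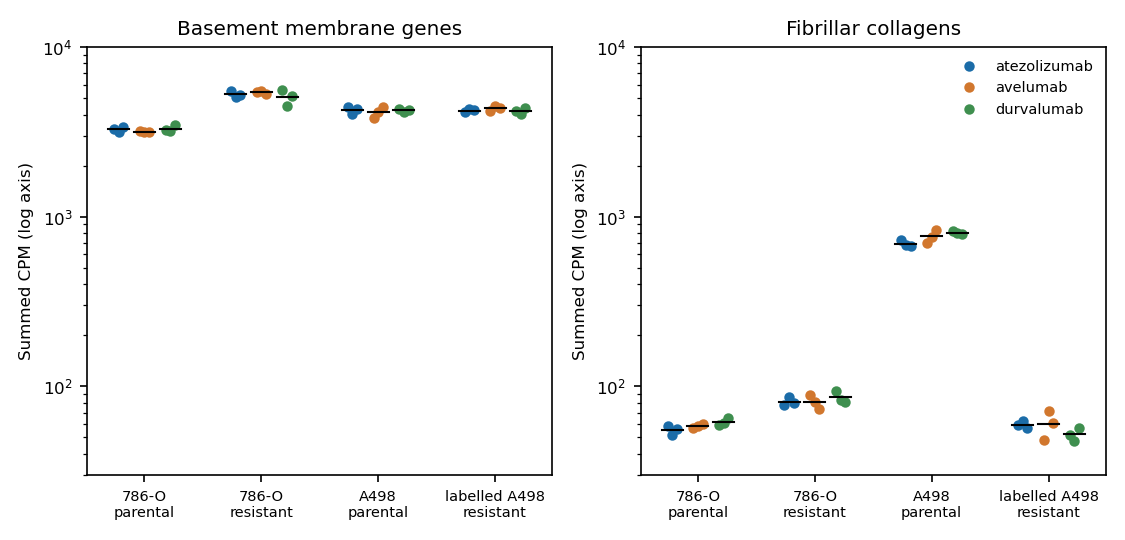
Summed CPM (log axes) of the 21 basement membrane genes and of the 11 fibrillar collagens in each of the 36 libraries, by cell state and antibody; short lines are group means of 3 libraries. The fibrillar sum of A498 parental libraries sits between 667 and 838 CPM, against 94.1 or less in all other libraries.

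In 786-O, resistant cells held more RNA of most of these genes, led by collagen IV, COL12A1 and LAMA1, and less of NID1, COL6A3, COL14A1 and COL5A2. Changes are log2 differences of resistant minus parental cells from edgeR, averaged over the antibodies, with TMM-scaled libraries. Of 40 genes with enough counts to be tested, 29 were higher and 8 lower at an adjusted p of 0.05 (37 of 40, against 83.8% of all genes tested, 43.6% higher and 40.2% lower), so that a call by itself says little here. At least 2-fold, 19 were higher and 5 lower, against 14.5% and 5.67% of all genes. The median change of the 40 genes was 0.87, against 0.03 over all genes tested. In bulk RNA fewer cells that express a gene and less RNA per cell cannot be told apart.

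All 6 collagen IV genes rose in 786-O resistant cells, with a median change of 1.82. COL4A1 (chromosome 13, 110148963 to 110307233 on GRCh38) had a lowest, median and highest level of 350, 397 and 426 CPM in parental libraries and 729, 865 and 908 in resistant ones. The groups did not overlap, and the change was 1.00 ± 0.029 (log2 ± SE, edgeR adjusted p = 3.94e-24). Its partner COL4A2, across the stretch between RefSeq starts shown above, had 695, 729 and 750 CPM in parental and 1224, 1431 and 1516 in resistant libraries. The change was 0.85 ± 0.028 (edgeR adjusted p = 4.24e-23), just under 2-fold. The pair of the glomerular network moved further from a low base. COL4A4 (chromosome 2, 227002711 to 227164453) had 0.0285, 0.0981 and 0.18 CPM in parental libraries, 37 counts in all, and 4.61, 5.48 and 6.03 in resistant ones (change 5.55 ± 0.13, edgeR adjusted p = 2.80e-27). COL4A3 rose by 3.2 ± 0.15 from 0.203 to 2.02 CPM, COL4A5 by 1.48 ± 0.040 from 7.04 to 21.3 and COL4A6 by 2.16 ± 0.32 from 0.0635 to 0.321 CPM. COL4A1 and COL4A2 still held most collagen IV reads, at 16.1% and 27.0% of the basement membrane sum in resistant cells.

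Laminin chains moved in both directions. LAMA1, the α chain of embryonic laminin, was lowest, median and highest at 2.04, 2.12 and 2.58 CPM in 786-O parental and 21.9, 24.8 and 25.7 in 786-O resistant libraries, without overlap (change 3.34 ± 0.049, edgeR adjusted p = 7.86e-33). Reads of antisense genes could touch 11.1% of its exonic length. LAMB2 rose by 1.07 ± 0.029, from 119 to 271 CPM, and LAMA3 and LAMA5, the α chains of epithelial laminins, rose by less than 2-fold (0.75 ± 0.050 and 0.70 ± 0.034). LAMB1 and LAMB3 were lower (changes of -0.58 ± 0.022 and -0.56 ± 0.026). LAMC1, the γ chain shared by most laminins, was called lower at -0.09 ± 0.025, although its mean CPM over raw totals was 421 in parental and 427 in resistant cells, so its direction depends on the scaling. LAMA2 was at 1.11 and 1.03 CPM and did not pass (edgeR adjusted p = 0.0828), and LAMA4, LAMB4 and LAMC3 had too few counts to be tested.

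Of the linkers, NID1 fell and NID2 and HSPG2 rose. NID1 (chromosome 1, 235975830 to 236065162), which binds laminin γ chains to collagen IV, was at a lowest, median and highest of 24.1, 27.5 and 28.9 CPM in 786-O parental and 0.624, 0.91 and 1.33 in 786-O resistant libraries. The highest resistant library was thus far below the lowest parental one, and the change was -5.00 ± 0.063 (edgeR adjusted p = 1.62e-34). NID2, its paralog, was higher by 1.13 ± 0.044, from 7.41 to 17.6 CPM, though 30% of its exonic length overlaps RTRAF on the opposite strand and its values are uncertain. HSPG2 was at 331, 378 and 518 CPM in parental and 726, 1066 and 1296 in resistant libraries, with a change of 1.34 ± 0.11 (edgeR adjusted p = 4.90e-08) and the widest spread of the abundant members. COL18A1, whose product sits in basement membranes as a proteoglycan, rose by 1.23 ± 0.033, from 463 to 1175 CPM. LDLRAD2 covers 11.7% of the exonic length of HSPG2 and SLC19A1 16.4% of that of COL18A1, both on the opposite strand, so these values are uncertain too.

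Among fibrillar collagens 5 of 7 tested genes were higher and 1 lower in 786-O resistant cells. COL5A2 fell from 11.9 to 2.94 CPM (change -2.12 ± 0.048), COL1A1 rose from 1.92 ± 0.323 to 3.18 ± 0.327 CPM (0.62, under 2-fold), and COL5A1 was at 0.518 and 0.656 CPM with a change of 0.23 ± 0.15 that did not pass (edgeR adjusted p = 0.15). COL2A1, the collagen of cartilage, had 0 counts in all parental libraries and 304 in resistant ones, at least 95.2-fold higher with a floor of 3 counts over the group, yet at a mean of only 0.819 CPM. Among fibril-associated collagens, COL12A1 had 1.71, 1.96 and 2.65 CPM in parental and 59.5, 75.0 and 84.1 in resistant libraries (change 5.07 ± 0.094, edgeR adjusted p = 7.76e-17), and COL14A1, of the same subfamily, had 13.6, 16.6 and 18.3 CPM in parental and 0.496, 0.917 and 1.11 in resistant ones (-4.29 ± 0.076). COL16A1 rose by 1.06 ± 0.073, from 2.55 to 5.75 CPM.

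The chains of collagen VI, which assemble together into beaded microfibrils, did not move together. COL6A1 rose by 1.02 ± 0.028, from 74.2 to 162 CPM, and COL6A2 by 0.88 ± 0.034, from 120 to 239 CPM. COL6A3 (chromosome 2, 237324003 to 237414375), the third chain of the common form, had 159, 178 and 211 CPM in parental and 7.35, 9.72 and 11.0 in resistant libraries, a change of -4.35 ± 0.066 (edgeR adjusted p = 3.47e-18). Of the remaining types, COL28A1 rose by 4.65 ± 0.18 from 0.0758 to 2.23 CPM (28 counts in all parental libraries), the transmembrane COL13A1 rose by 2.14 ± 0.15 from 0.23 to 1.09 CPM, and COL17A1, a hemidesmosome protein, fell by 1.12 from 1.91 to 0.959 CPM.

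**Figure D3:**
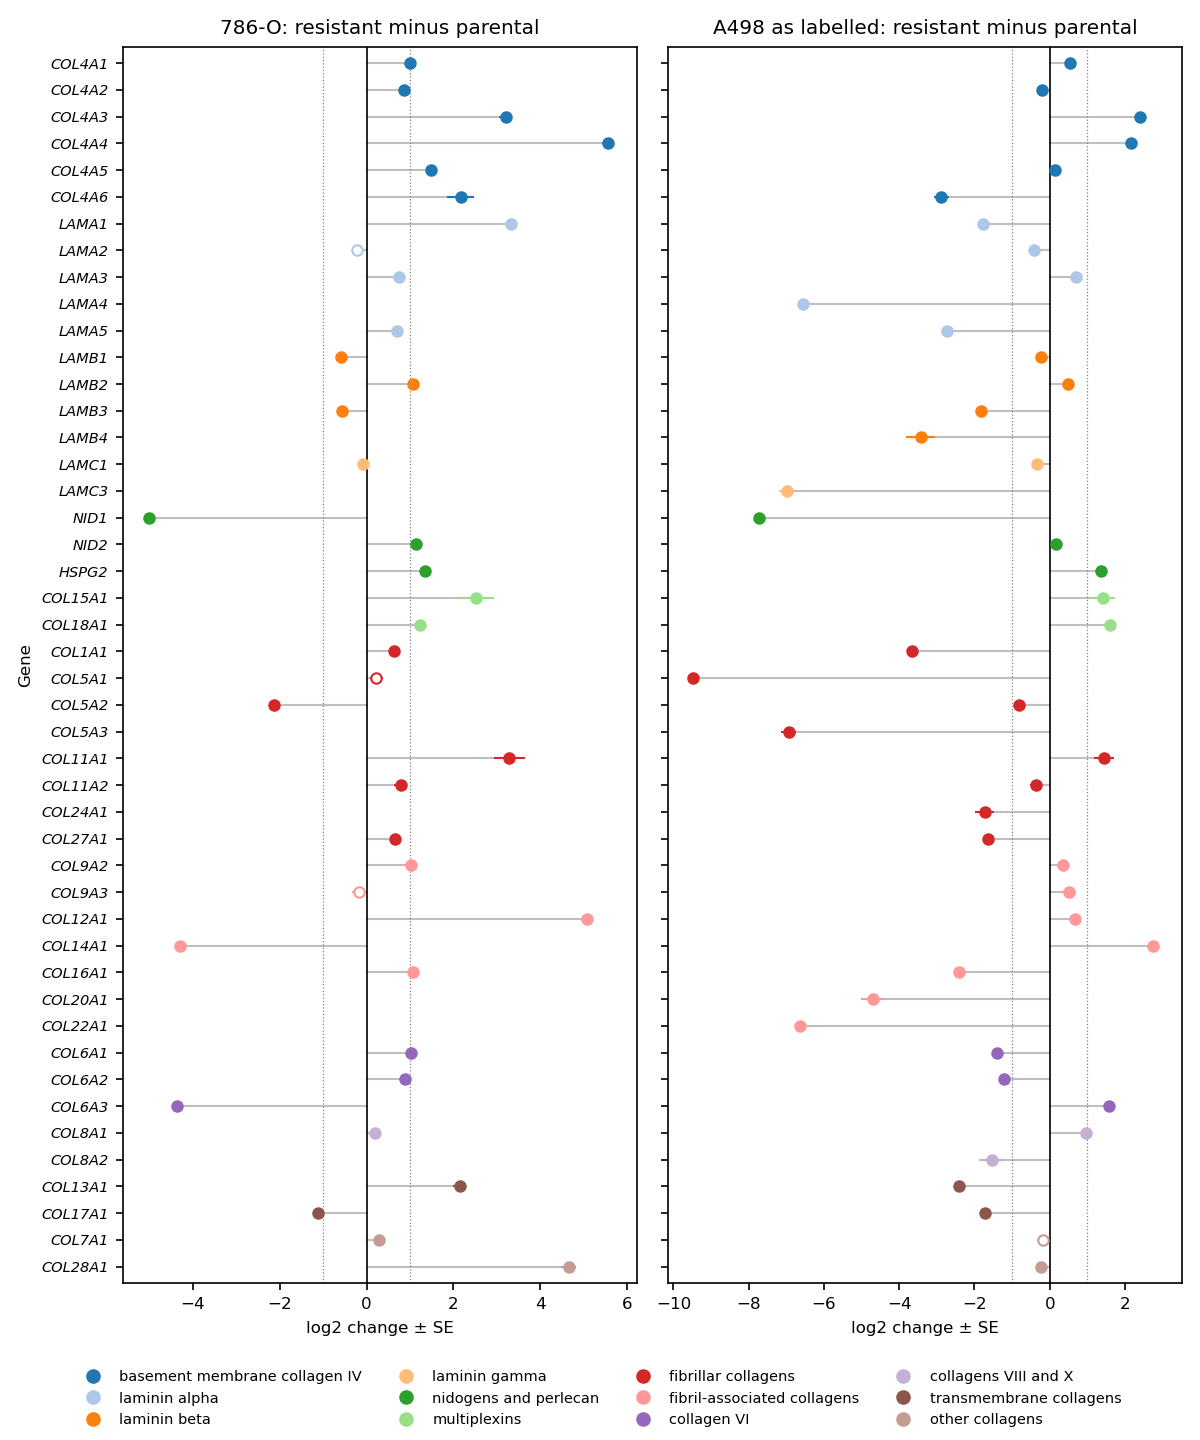
Log2 change ± SE of resistant minus parental libraries for tested genes with counts in both states, in 786-O and for A498 as labelled (18 libraries each); filled points passed an adjusted p of 0.05, open points did not, and dotted lines mark 2-fold. In 786-O all 6 collagen IV genes lie right of 0 and NID1, COL6A3 and COL14A1 lie furthest left, while for A498 as labelled COL5A1 (-9.47) and NID1 (-7.72) lie furthest left.

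Relative to A498 parental, the set labelled A498 resistant had less RNA of most fibrillar collagens, most laminin α and β chains and NID1, and more of HSPG2, COL18A1, COL4A3 and COL4A4. Of 47 tested genes 18 were higher and 28 lower (46 of 47, against 88.2% of all genes tested, 44.2% higher and 44% lower). At least 2-fold, 9 were higher and 21 lower, against 15% and 16.8% of all genes, and the median change was -0.38 against 0.01 over all genes. COL5A1 (chromosome 9, 134641774 to 134844843) had a lowest, median and highest level of 485, 553 and 589 CPM in A498 parental and 0.627, 0.845 and 0.979 in the libraries labelled resistant (change -9.47 ± 0.052, edgeR adjusted p = 5.77e-53). Both sets labelled resistant and 786-O parental were below 1 CPM for this gene in every library. COL1A1, the major chain of collagen I, was at 50.0, 54.8 and 61.5 CPM in A498 parental and 3.76, 4.44 and 5.76 in the libraries labelled resistant (-3.65 ± 0.043, edgeR adjusted p = 2.10e-49), although COL1A2, the other chain of collagen I, had 1 and 5 counts. COL27A1 (144 to 48.4 CPM, change -1.65 ± 0.075) and COL5A3 (4.15 to 0.0303 CPM, -6.94 ± 0.20) were lower as well. Of 8 tested fibrillar genes 7 were lower, and COL11A1 was higher (0.2 to 0.568 CPM).

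Of 5 tested laminin α chains 4 were lower and 1 higher in the set labelled A498 resistant, and of 4 β chains 3 were lower and 1 higher. The higher ones were LAMA3 (82.9 to 144 CPM, change 0.71 ± 0.058) and LAMB2 (172 to 257 CPM, 0.50 ± 0.024). LAMA5 had 421, 553 and 593 CPM in A498 parental and 79.4, 85.9 and 89.2 in the libraries labelled resistant (-2.74 ± 0.071). LAMA1 (80.4 to 25.1 CPM, change -1.76), LAMB3 (200 to 60.2, -1.82), LAMA4 (13.2 to 0.145, -6.56), a chain of vessel and muscle laminins, and LAMC3 (4.87 to 0.0377, -6.99) were lower. NID1 had 181, 204 and 216 CPM in A498 parental and 0.725, 0.996 and 1.35 in the libraries labelled resistant (-7.72 ± 0.049), without overlap, while NID2 was at 16.3 and 19.5 CPM (change 0.17 ± 0.037, edgeR adjusted p = 3.50e-05). HSPG2 was higher by 1.36 ± 0.11 (282 to 765 CPM) and COL18A1 by 1.59 ± 0.023 (234 to 747).

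Collagen IV was mixed in this comparison, with 4 of 6 genes higher and 2 lower. COL4A1 was higher (540 ± 23.2 to 836 ± 23.3 CPM, change 0.55 ± 0.021) and COL4A2 lower (1182 ± 31.1 to 1096 ± 21.8 CPM, -0.19 ± 0.021). The genes on either side of the stretch between their RefSeq starts thus went opposite ways, and what the stretch does was not tested. COL4A3 (0.456 to 2.58 CPM, change 2.41 ± 0.14) and COL4A4 (1.41 to 6.63, 2.15 ± 0.080) were both higher, and COL4A6 was lower (1.21 to 0.174, -2.88 ± 0.19). COL6A1 and COL6A2 were lower (-1.40 ± 0.023 and -1.22 ± 0.024) and COL6A3 higher (1.32 to 4.19 CPM, 1.56 ± 0.097). COL14A1 was higher by 2.74 ± 0.15 (0.301 to 2.15 CPM), while the fibril-associated COL16A1 (-2.42), COL20A1 (-4.70, to 0.0377 CPM) and COL22A1 (-6.63, from 12.4 to 0.128 CPM) and the transmembrane COL13A1 (-2.42) and COL17A1 (-1.72) were lower.

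**Figure D4:**
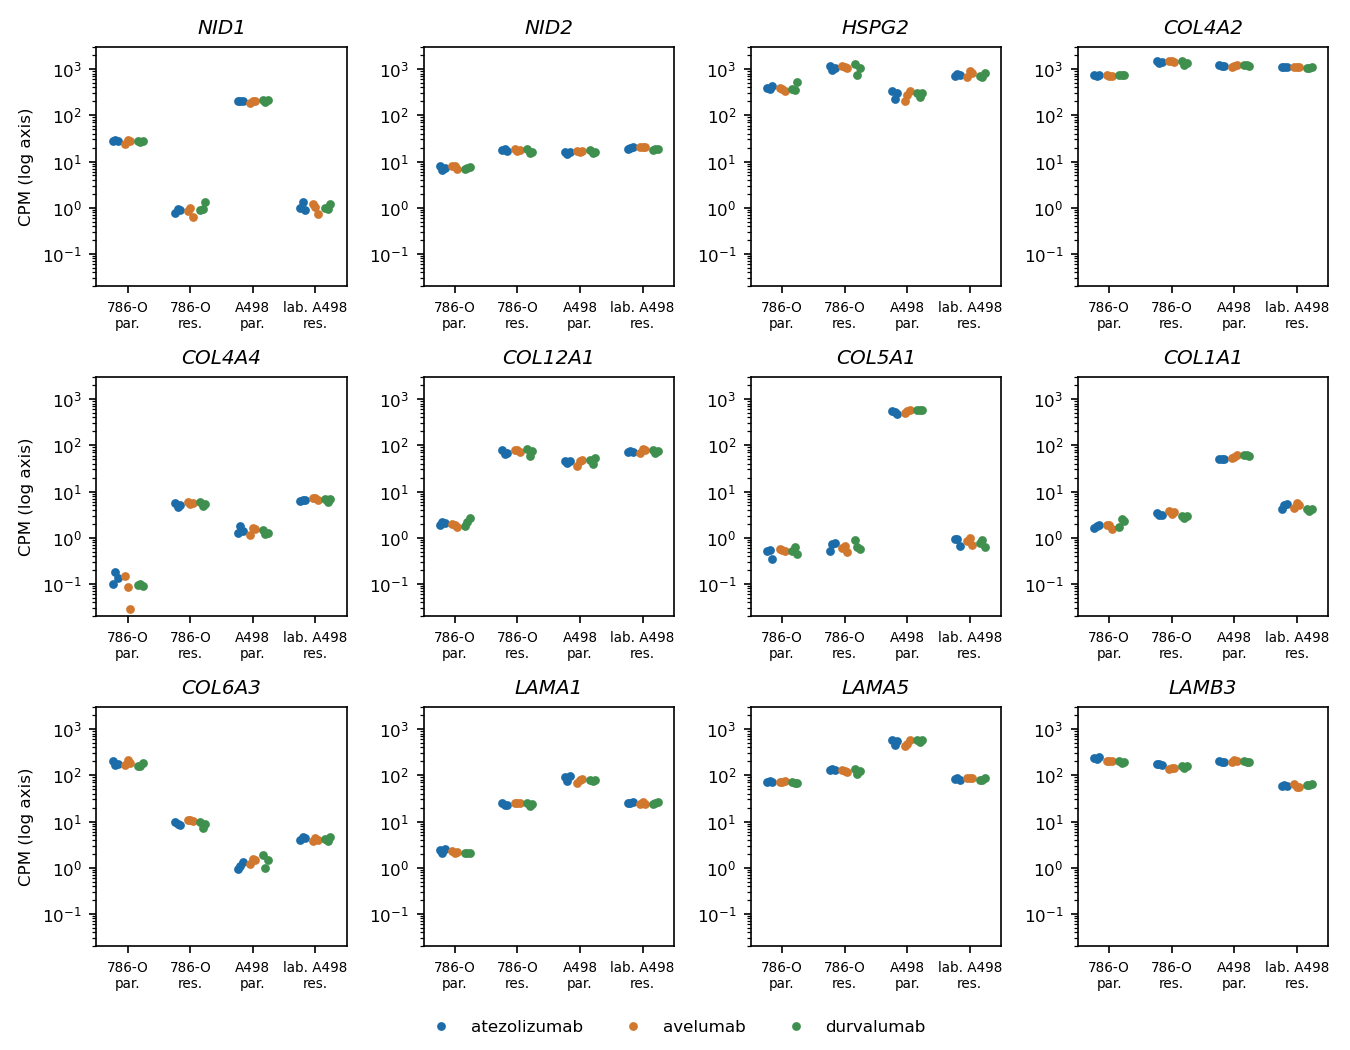
CPM of 12 genes in each of the 36 libraries by cell state and antibody, on log axes (786-O par. and A498 par., parental; 786-O res., resistant; lab. A498 res., libraries labelled A498 resistant). The 3 antibodies lie close together within a state, NID1 is near 1 CPM in both sets of resistant libraries, and COL5A1 and COL1A1 are highest in A498 parental.

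Most of these genes were higher in A498 parental than in 786-O parental, among them COL5A1, COL1A1, LAMA1, LAMA4 and LAMA5, while COL6A3 and COL14A1 were lower. Of 45 tested genes 32 were higher and 10 lower in A498 parental than in 786-O parental (42 of 45, against 87.2% of all genes tested, 44.3% higher and 42.9% lower). At least 2-fold, 27 were higher and 5 lower, against 20.9% and 10.7% of all genes, with a median change of 1.5 against 0.01 over all genes. All 6 collagen IV genes were higher in A498 parental, among them COL4A4 (1.41 against 0.107 CPM) and COL4A6 (1.21 against 0.0635). Of 5 tested laminin α chains 4 were higher and none was lower, with LAMA3 not called, and 3 exceeded 2-fold, namely LAMA1 (80.4 against 2.22 CPM, log2 difference 5.15 ± 0.071), LAMA4 (13.2 against 0.0531, 7.89 ± 0.11) and LAMA5 (529 against 71.8, 2.85 ± 0.071). NID1 was at 203 against 27.3 CPM (2.86 ± 0.030) and NID2 at 16.3 against 7.41 (1.1 ± 0.043). The fibrillar COL5A1 was higher by 10.00 ± 0.051 and COL1A1 by 4.83 ± 0.047 (edgeR adjusted p = 1.02e-43 for COL5A1). COL5A3 had 1261 counts against 1, a ratio of 1455 with an exact 95% counting interval of 261 to 57514, and COL22A1 had 3771 against 3, a ratio of 1450 (496 to 7036).

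The remaining genes named as higher in A498 parental were COL12A1 (44.5 against 2.04 CPM), COL13A1 (6.12 against 0.23), COL16A1 (12.9 against 2.55), COL27A1 (144 against 43.5), COL28A1 (2.24 against 0.0758), COL6A1 (277 against 74.2), COL6A2 (372 against 120), COL4A5 (20.4 against 7.04), COL11A2 (1.2 against 0.584), COL20A1 (1.12 against 0.0147) and LAMC3 (4.87 against 0.0163). Genes lower in A498 parental by 2-fold or more included COL6A3 (log2 difference -7.09 ± 0.098), COL14A1 (-5.78 ± 0.090), COL5A2 (-2.31 ± 0.057) and COL18A1 (-1.01 ± 0.030). The γ chain LAMC1 did not pass (430 ± 20.4 against 421 ± 14 CPM, difference 0.00 ± 0.021, edgeR adjusted p = 0.927).

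The libraries labelled A498 resistant and 786-O resistant differed least. Of 40 tested genes 10 were higher and 17 lower in the libraries labelled A498 resistant (27 of 40, against 69% of all genes tested, 33.8% higher and 35.2% lower), but only 1 was higher and 6 were lower by 2-fold or more, against 3% and 2.28% of all genes. Among them were COL14A1, higher at 2.15 against 0.889 CPM, and LAMB3 (60.2 against 155 CPM, log2 difference -1.39 ± 0.030), COL16A1 (2.53 against 5.75, -1.21 ± 0.079), COL6A3 (4.19 against 9.45, -1.20 ± 0.063) and COL5A2 (1.49 against 2.94, -1.02 ± 0.090), which were lower. NID1 was at 1.04 ± 0.189 against 0.917 ± 0.189 CPM (0.12 ± 0.14, edgeR adjusted p = 0.458), and COL4A1 at 836 against 845 (-0.04 ± 0.027, edgeR adjusted p = 0.146). LAMB3 had the highest levels among the lower genes just given.

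The resistant minus parental change was then compared between 786-O and A498 as labelled in a fit of all 36 libraries, in which 80.4% of all genes passed. The 32 genes named by rule in either comparison were chosen for a change of at least 2-fold in these same libraries. A difference between lines was thus likely beforehand, and the 80.4% is not a like background for them. Opposite signs over all genes were not counted. Of the 32 genes, 27 were tested in both lines and 26 of them differed between lines, 13 of the 27 with opposite signs. Those with opposite signs were COL1A1, COL5A1, COL27A1, COL4A6, LAMA1, LAMA5, COL6A1, COL6A2, COL6A3, COL13A1, COL14A1, COL16A1 and COL28A1. The sign of COL5A1 rests on a change in 786-O that did not pass. NID1 fell in both, by 2.71 ± 0.13 less on the log2 scale in 786-O. HSPG2 changed by 1.34 in 786-O and 1.36 for A498 as labelled (difference -0.03 ± 0.15, edgeR adjusted p = 0.849), a difference that did not pass and whose sign turned in other fits. The 2 changes share no library, but the uncertain origin of the set labelled A498 resistant bears on all of these values.

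Other genes of the same matrix pathways were counted from lists of collagen-processing enzymes, receptors, other basement membrane proteins and metalloproteinases. These counts are read against the share of all genes called in each comparison, and nothing particular to a list is drawn from them. In 786-O, where 43.6% of all genes were called higher and 40.2% lower, 10 of 13 tested collagen and laminin receptors rose and 2 fell, including DDR1, a collagen receptor kinase (24.3 to 71.2 CPM, change 1.44 ± 0.029), the integrin chains ITGA1 (3.94 to 16.3, 1.94) and ITGB4 (0.399 to 3.03, 2.80), and BCAM, a receptor for LAMA5 (1.55 to 11.4, 2.76). Other basement membrane proteins rose in 7 and fell in 2 of 9, with TINAGL1 at 102 and 406 CPM (1.88 ± 0.026), FRAS1 (2.62) and FREM2 (1.89) higher and TINAG (-2.65) lower. Of 31 processing enzymes and chaperones 12 rose and 17 fell, among them LOX, which crosslinks collagen (7.84 to 0.559 CPM, -3.90 ± 0.082), PXDN, which crosslinks collagen IV (26.6 to 1.98, -3.85 ± 0.055), and LOXL1 (-1.82), with COLGALT2 higher (3.28). Metalloproteinases and inhibitors rose in 8 and fell in 5 of 16: MMP15 (2.83) and MMP16 (1.93) were higher, MMP13 (-5.38, to 0.0285 CPM) and MMP1 (-1.96) lower.

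For A498 as labelled, where 44.2% of all genes were called higher and 44% lower, 4 of 13 receptors were higher and 9 lower, with DDR1 (119 to 49.7 CPM, -1.34), ITGA2 (-2.27) and ITGA11 (-2.31) lower and DDR2 (1.34) higher. Of 31 processing genes 11 were higher and 18 lower, and PXDN had the largest difference, from 1038 to 2.21 CPM (-8.96 ± 0.042), followed by LOX (-4.81), PCOLCE2 (-4.11) and ADAMTS2 (-3.26). Among 9 other basement membrane proteins 4 were higher and 5 lower, with FBLN1, a laminin- and nidogen-binding protein, falling from 364 to 1.03 CPM (-8.56 ± 0.043), and TINAGL1 (1.32 to 349, 7.96), FRAS1 (2.99) and FREM2 higher, the last from 0.00679 to 2.74 CPM. Of 14 metalloproteinases and inhibitors 3 were higher and 10 lower, with MMP7 (-4.94) and MMP13 (-2.52) among the lower and MMP16 (4.27) and MMP2 (3.07) among the higher.

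Between parental lines, where 44.3% of all genes were called higher and 42.9% lower, 11 of 13 receptors were higher and 2 lower in A498 parental, led by ITGA11 (5.99), BCAM (4.56), ITGA1 (3.14) and DDR1 (2.26), and 16 of 31 processing genes were higher and 13 lower, with PXDN at 1038 against 26.6 CPM. FBLN1 (364 against 0.29 CPM) and TINAGL1 (1.32 against 102 CPM) were at opposite extremes among 9 other basement membrane proteins, 4 of which were higher and 4 lower. Of 15 metalloproteinases and inhibitors 9 were higher and 6 lower, with MMP2, which cleaves collagen IV, at 1.01 against 55.3 CPM and MMP7 at 45.4 against 1.8. In the comparison of the libraries labelled A498 resistant with 786-O resistant, where 33.8% of all genes were called higher and 35.2% lower, 4 of 13 receptors were higher and 7 lower, 10 of 31 processing genes higher and 14 lower, 4 of 10 other basement membrane proteins higher and 2 lower, and 2 of 15 metalloproteinases higher and 9 lower. The widest differences there were ADAMTS2 (1.82), TLL1 (-1.55), DDR2 (1.40) and MMP9 (-1.30).

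Antibodies differed little in their effect on these genes, and no pair of antibodies moved a called member by 2-fold. In a test over the 3 antibodies, 4 of 32 tested genes passed in 786-O parental (3.52% of all genes passed), 2 of 40 in 786-O resistant (0.741%), 5 of 45 in A498 parental (3.83%) and 0 of 37 in the libraries labelled A498 resistant (0.0114%), where edgeR gave 2 genes at an unadjusted p under 0.05 and DESeq2 called 0. The share of all genes at that unadjusted p was not counted. LAMB3, a β chain of epithelial laminin, was called in both 786-O states. In 786-O parental its replicates were 231, 225 and 250 CPM under atezolizumab, 201, 201 and 199 under avelumab and 207, 188 and 199 under durvalumab. All atezolizumab libraries lay above the others, by -0.24 ± 0.040 for avelumab (edgeR adjusted p = 0.00117) and -0.27 ± 0.041 for durvalumab (edgeR adjusted p = 0.000748). In 786-O resistant they were 172, 174 and 170 CPM under atezolizumab, 134, 143 and 143 under avelumab and 157, 144 and 157 under durvalumab, with only the avelumab difference called (-0.32 ± 0.047, edgeR adjusted p = 0.000888). The durvalumab difference there was called with no filter (edgeR adjusted p = 0.0366).

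The antibody effect differed between resistant and parental 786-O cells for 1 of 40 members (edgeR, against 0.614% of all genes). No member was called in 7 of 18 fits that left out 1 library: resistant atezolizumab replicates 2 and 3, avelumab 3 and durvalumab 3, and parental atezolizumab 1, avelumab 3 and durvalumab 2. The number called over the antibodies in 786-O resistant rose from 2 to 8 without durvalumab replicate 1. Over all genes, fits without 1 library called 71 to 1160 there, against 140 in the fit reported.

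COL6A1 in 786-O parental had 85.5, 77.5 and 77.0 CPM under atezolizumab, 71.3, 71.3 and 70.1 under avelumab and 75.5, 70.9 and 68.1 under durvalumab, so that atezolizumab was highest without overlap. Its differences from atezolizumab were -0.19 ± 0.042 for avelumab and -0.18 ± 0.043 for durvalumab (edgeR adjusted p = 0.0116 and 0.028). The avelumab call ended without atezolizumab replicate 1 (adjusted p = 0.0858) or avelumab replicate 2 (0.0599), and the durvalumab call without atezolizumab replicate 1 (0.14), durvalumab replicate 2 (0.156) or 3 (0.134). COL4A1 there had 401, 386 and 414 CPM under atezolizumab and 378, 350 and 362 under avelumab (-0.15 ± 0.037, edgeR adjusted p = 0.0188), with 411, 397 and 426 under durvalumab. The avelumab call on COL4A1 ended without atezolizumab replicate 3 (adjusted p = 0.13), avelumab replicate 2 (0.132) or 3 (0.0581). Durvalumab minus avelumab for COL4A1 was not called in the fit reported. It was called in DESeq2 (adjusted p = 0.0362) and in edgeR with no filter (0.000295). Leaving out avelumab replicate 1 (0.0144) or durvalumab replicate 1 (0.0448) in edgeR also gave that call. COL8A1, a collagen of vessel walls, passed only the test over all antibodies (edgeR adjusted p = 0.0274), at 119 ± 3.88, 118 ± 4.74 and 132 ± 1.76 CPM. Without avelumab replicate 2 the number called over the antibodies fell from 4 to 2. Over all genes, fits without 1 library called 299 to 1235 in 786-O parental, against 618 in the fit reported.

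In A498 parental, COL1A1 had 50.0, 50.5 and 50.2 CPM under atezolizumab, 52.6, 54.8 and 61.5 under avelumab and 61.3, 61.2 and 58.8 under durvalumab (durvalumab minus atezolizumab 0.26 ± 0.046, edgeR adjusted p = 0.00196). Its avelumab minus atezolizumab difference was called only with no filter (edgeR adjusted p = 0.0391) and without avelumab replicate 1 (0.0182). COL18A1 had 257, 240 and 255 CPM under atezolizumab and 219, 203 and 230 under avelumab (-0.21 ± 0.040, edgeR adjusted p = 0.00300, and 0.0507 without avelumab replicate 2). The transmembrane COL13A1 had 5.14, 5.08 and 4.08 CPM under atezolizumab, 6.03, 8.09 and 7.64 under avelumab and 6.29, 5.93 and 6.82 under durvalumab (0.59 ± 0.11 for avelumab, edgeR adjusted p = 0.00345). Its durvalumab difference of 0.41 ± 0.12 was at the threshold (adjusted p = 0.0494 by edgeR) and was lost without any of 6 libraries, all atezolizumab and all durvalumab replicates (up to 0.315). It was also lost in DESeq2 (0.0841), with a replicate block (0.0668), with RLE factors (0.0501), with the strict filter (0.0612) and in a fit of all libraries (0.069). COL16A1 was higher under durvalumab than under atezolizumab (14.1 ± 0.55 against 11.4 ± 0.485 CPM, 0.29 ± 0.073, edgeR adjusted p = 0.0229), a call lost without atezolizumab replicate 3 (0.166) or durvalumab replicate 1 (0.202), in a fit of all libraries (0.103) and in DESeq2 (0.0502). COL20A1, named after its values were seen, was the fifth gene called, at 0.724, 1.35 and 1.29 CPM under atezolizumab, avelumab and durvalumab. Its avelumab difference from atezolizumab (0.88 ± 0.23, edgeR adjusted p = 0.0252) lost its call in a fit of all libraries (adjusted p = 0.0848) and without any of 4 libraries, atezolizumab replicates 2 and 3 and avelumab replicates 2 and 3 (up to 0.173). Its durvalumab difference (0.85 ± 0.23, edgeR adjusted p = 0.0330) lost it with a replicate block (adjusted p = 0.0525), in a fit of all libraries (0.107) and without any of 5 libraries, atezolizumab replicates 2 and 3 and all durvalumab replicates (up to 0.242). The number called over the antibodies fell from 5 to 2 without atezolizumab replicate 3 and to 3 without durvalumab replicate 1. Over all genes, fits without 1 library called 233 to 892 in A498 parental, against 704 in the fit reported.

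In the libraries labelled A498 resistant no pair of antibodies gave a called member, against 0% of all genes for avelumab minus atezolizumab, 0.00571% for durvalumab minus atezolizumab and 0.0171% for durvalumab minus avelumab. At an unadjusted p under 0.05 edgeR gave 1, 3 and 3 of 37 members tested. The shares just given are for the adjusted threshold, and the share of all genes at the unadjusted p was not counted. The lowest p-values were for COL1A1 (4.21, 5.20 and 5.39 CPM under atezolizumab, 4.44, 5.76 and 5.10 under avelumab, 4.21, 3.76 and 4.20 under durvalumab) and NID2 (19.8, 20.3 and 18.4 CPM on average). Their durvalumab minus avelumab differences of -0.34 ± 0.12 and -0.15 ± 0.060 did not pass (edgeR adjusted p = 0.458 and 0.493). The antibody effect on COL1A1 differed between the A498 states as labelled (edgeR adjusted p = 0.0389, 1 of 47 members, against 0.889% of all genes), and in 10 of 18 fits that left out 1 library no member was called: without resistant atezolizumab replicate 2 or 3, avelumab 3 or durvalumab 1 or 2, or parental atezolizumab 1 or 3, avelumab 2 or durvalumab 1 or 2. That on LAMB3 differed between the parental lines (edgeR adjusted p = 0.00663, 1 of 45, against 1.69% of all genes), with 196 ± 6.48, 203 ± 10.3 and 199 ± 6.92 CPM under atezolizumab, avelumab and durvalumab in A498 parental. This LAMB3 call between the parental lines was not followed in fits that left out 1 library or in the other alternatives.

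**Figure D5:**
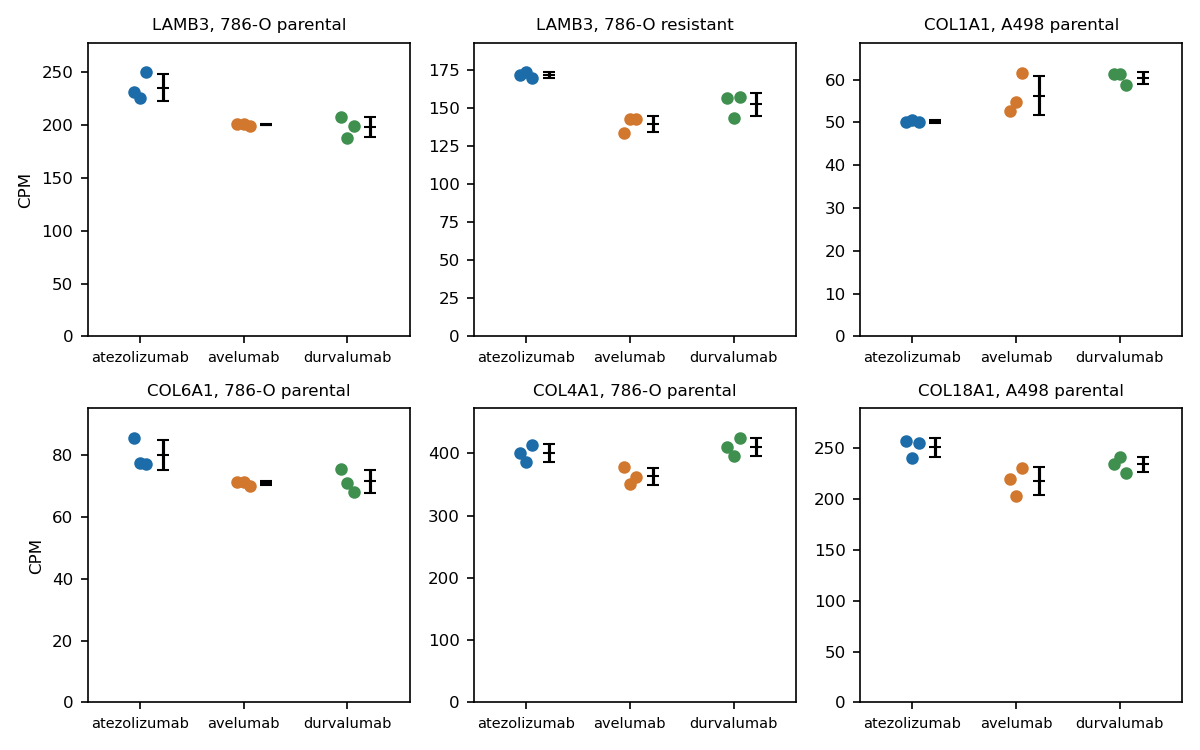
CPM of 6 gene and state pairs with a difference between antibodies, for the 3 replicates of each antibody; horizontal ticks are means and bars 1 SD (n = 3). LAMB3 is highest under atezolizumab in both 786-O states, COL4A1 is lowest under avelumab in 786-O parental, and COL1A1 in A498 parental is lowest under atezolizumab, all by less than 2-fold.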

How the data were processed

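RNA of 36 libraries was sequenced from a stranded mRNA kit, per the labels' protocols. The authors deposited raw counts per gene. The submitters' processing notes name bcl2fastq 2.19.0, Trimmomatic 0.36.6, HISAT2 2.1.0, featureCounts 1.6.3 and GRCh38, while for the counting step neither annotation release nor strand option is stated there, so genes overlapping on opposite strands are uncertain. CPM were computed over raw library totals. Genes were kept by edgeR's filterByExpr (minimum count 10, total 15), scaled by TMM and tested with edgeR 4.0.16 (quasi-likelihood, robust) in R 4.3.3, two-sided, with Benjamini-Hochberg adjustment over all genes tested and a threshold of 0.05. State comparisons average the antibodies, and antibody tests use 1 state each. Gene coordinates, exonic lengths and overlaps came from GENCODE 29, and start sites and the windows before them from RefSeq.

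Members named by rule in a state comparison were past the threshold, with at least a 2-fold change, the same sign under each antibody and 1 CPM in a state. Others described there, such as COL4A6, COL2A1 and LAMC1 in 786-O, fall outside this rule. In antibody tests at most 4 per state were named by rule, by p-value. The members and lists were chosen with earlier results of these data known. Alternatives were other scalings and filters, DESeq2 1.42.0, a replicate block, all libraries in one fit and leaving out each library; those for the difference between lines were chosen after seeing the data. The code was tested on simulated data. Library totals limit precision for genes near 0, and bounds and counting intervals cover counting error only. Values of 1 member are not reported here.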

Additional observations from a re-analysis of the deposited data

Results flagged for a closer look

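The difference between the change in 786-O and that for A498 as labelled (log2, edgeR on all 36 libraries) passed the threshold for 26 named genes, of which 25 are given here. Among basement membrane genes it was 0.44 for COL4A1, 0.77 for COL4A3, 3.39 for COL4A4, 1.34 for COL4A5, 5.03 for COL4A6, 5.08 for LAMA1, 3.43 for LAMA5, 0.56 for LAMB2, 1.25 for LAMB3, 2.71 for NID1 and 0.95 for NID2. Among fibrillar collagens it was 4.26 for COL1A1, 9.68 for COL5A1, -1.33 for COL5A2 and 2.29 for COL27A1. For the other collagens it was 4.38 for COL12A1, 4.54 for COL13A1, -7.04 for COL14A1, 3.47 for COL16A1, 0.59 for COL17A1, -0.37 for COL18A1, 4.86 for COL28A1, 2.41 for COL6A1, 2.09 for COL6A2 and -5.93 for COL6A3. A positive value means a higher change in 786-O. These genes were chosen for their change in the same libraries, so that a difference between lines was likely beforehand. Which line the set labelled A498 resistant came from is uncertain, and its part in these differences cannot be told apart from resistance.

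The effect of the antibodies differed between the A498 states as labelled for COL1A1 (edgeR adjusted p = 0.0389) and between the parental lines for LAMB3 (edgeR adjusted p = 0.00663). The call on COL1A1 was lost without single libraries, as described above. The call on LAMB3 between the parental lines was not followed in the alternatives.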

How the results depend on the processing

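No gene named by rule in the 4 state comparisons lost its call or turned in the alternatives that tested it. Genes of low count, such as COL4A3 and COL4A4 in 786-O, were not tested under the stricter filter. COL4A1 between the resistant sets, not called in the fit reported, was called with upper-quartile factors (edgeR adjusted p = 0.00975). It was also called without 786-O resistant durvalumab replicate 2 (0.0127). A stricter filter tests fewer genes, and the members called were then 23 in 786-O resistance (37 in the fit reported), 25 for A498 as labelled (46), 27 between parental lines (42), 17 between resistant sets (27) and 23 for the difference between lines (42). Over all genes the stricter filter called 10264 of 11652 tested, 11087 of 12006, 10768 of 11765, 9441 of 11798 and 10519 of 11896, in the same order. In the fit reported these were 16232 of 19369, 17155 of 19458, 17189 of 19703, 13243 of 19196 and 16683 of 20752. How many members the stricter filter tested was not counted. At least 2-fold, the stricter filter gave 9 higher in 786-O, 3 higher and 12 lower for A498 as labelled, 14 higher between parental lines and 0 higher and 3 lower between resistant sets, where no filter and all libraries in one fit each gave 2 higher. Shares over all genes at 2-fold were not counted for these settings. With TMM library sizes the basement membrane sum was 3447 CPM in 786-O parental and 4055 in the libraries labelled A498 resistant. In A498 parental the TMM factors, from 0.9629 to 0.9998, raise the sum above its 4213 CPM by raw totals. The order of A498 parental and the set labelled A498 resistant (4213 and 4253 CPM by raw totals) thus depends on the scaling. For the antibodies, no filter gave 4 members for resistant and 9 for parental 786-O, DESeq2 gave 4 in 786-O resistant, and leaving out 1 library gave 2 to 8 for resistant and 2 to 5 for parental 786-O and 2 to 7 in A498 parental. Over all genes, leaving out 1 library gave 71 to 1160, 299 to 1235 and 233 to 892 calls in the same order. For avelumab minus atezolizumab over all genes, no filter called 617 of 36511 tested in resistant and 1132 of 32707 in parental 786-O. The fit reported called 228 of 18886 and 763 of 17577. DESeq2 called 365 of 18886 in 786-O resistant. The member counts come from the test over the 3 antibodies and these calls from 1 pair. They thus give no share to set beside the member counts, from which nothing particular to these genes is drawn. The antibody by resistance count in 786-O was 2 with upper-quartile factors, 4 with no filter, 2 with all libraries in one fit and 0 to 4 without 1 library, and for A498 as labelled it was 0 with the strict filter, 0 with all libraries in one fit and 0 to 3 without 1 library. Shares over all genes were not counted for these antibody by resistance fits. The causes were not tested. HSPG2's difference between lines turned to 0.0219 with RLE factors, 0.0761 with upper-quartile factors, 0.0376 with no filter and 0.0663 with the strict filter, and ran from -0.106 to 0.0282 without 1 library. Antibody differences that were not called also turned without 1 library: avelumab minus atezolizumab for COL1A1 in the set labelled A498 resistant (-0.0470 to 0.133), and durvalumab minus avelumab for COL20A1 in A498 parental (-0.149 to 0.0715) and for COL6A1 (-0.0377 to 0.0456) and LAMB3 (-0.0615 to 0.0177) in 786-O parental.

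Replicate numbers were not used to pair the libraries in the fit reported. Correlations of same-number deviations ran from -0.31 to 0.34, and no comparison had every pair above 0.1. These values cannot exclude a partial pairing, as 3 of 9 pairs among antibodies in 786-O resistant were above 0.1. With a replicate block, the members called over the antibodies in 786-O resistant were 4, and the antibody by resistance count in 786-O was 2. Shares over all genes with the block were not counted for either test, so nothing particular to these genes is drawn from these counts. The calls over all genes given next are for a single pair of antibodies and provide no such share. Over all genes, avelumab minus atezolizumab calls with the block were 410 in 786-O resistant, against 228 in the fit reported. They were 438 against 763 in 786-O parental and 470 against 623 in A498 parental. The block also ended 2 calls on named genes in A498 parental, both durvalumab minus atezolizumab: COL13A1 (edgeR adjusted p = 0.0668) and COL20A1 (edgeR adjusted p = 0.0525).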
